A study of Mus musculus with 23 samples.

Results

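Transcripts of the cytoplasmic ribosomal proteins were measured in mouse hindlimb muscle after spaceflight and after hindlimb suspension. The genes were chosen by name. A gene was included where its symbol starts with Rpl or Rps and a digit, or is Rplp0, Rplp1, Rplp2 or Rpsa, and where at least 1 probe set of the array carries that symbol alone. The Rps6k kinase genes and a symbol ending in -ps were left out. This gave 48 genes out of 12393 with a single-symbol probe set, 26 of the large subunit and 22 of the small subunit, and 45 of them (24 large, 21 small) were among the 9133 genes tested. Female C57BL/6J mice aged 77 days were used in both experiments, with no transgene or mutant allele in the labels. In the flight experiment, gastrocnemius muscle came from mice flown for 11 days and 19 hours (spaceflight, 4 arrays) and from mice held for as long in the animal enclosure module, a flight cage, on the ground (ground AEM, 4 arrays). In the second experiment, calf muscle came from mice whose hindlimbs were suspended for 12 days and then bore weight again for 3.5 hours (reloaded, 5 arrays), from mice suspended for 12 days without reloading (suspension, 5 arrays) and from untreated mice (control, 5 arrays). Groups follow the sample titles, with which the source names and the series design agree in every sample; the description field of the flown samples tells of enclosure housing and that of the enclosure samples of flight, and it was not used.

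The ribosome is built from a large and a small subunit, each of them ribosomal RNA with many different proteins. Most of these proteins are present once per ribosome, and in growing cells their mRNAs are produced together. Their mRNAs typically begin with a run of pyrimidines, the 5′ terminal oligopyrimidine tract, through which the growth-sensing kinase complex mTORC1 controls how strongly they are translated. In skeletal muscle the number of ribosomes is one limit on protein synthesis, and muscle loses protein when it is not loaded. A few ribosomal proteins have tissue-specific paralogs, of which Rpl3l, the striated-muscle counterpart of Rpl3, is the best known in muscle.

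The values are deposited log2 signals of 1 array per sample, so a difference of 1 is a doubling. Each gene was represented by its single-symbol probe set with the highest mean over the 23 arrays. The test covered genes with a signal above 5.83, which is the 40th percentile of all values, on 4 or more arrays. Rpl14, Rpl39l and Rps4l did not pass, with mean log2 signals of 4.45, 3.75 and 5.56. Rpl39l encodes a paralog of Rpl39 that is enriched in testis, and Rps4l is annotated by RefSeq as a transcribed pseudogene. Rpl12 passed the filter on 0 spaceflight and 1 ground AEM arrays and on 3 reloaded, 1 suspension and 0 control arrays. Rpl27a passed it on 0 spaceflight and 0 ground AEM arrays and on 5 reloaded, 4 suspension and 5 control arrays, so its flight difference rests on signals below 5.83. A further 30 genes of this naming pattern, among them Rpl3, Rplp1, Rpl5 and Rpl10, were seen only on probe sets that list several symbols and have no value of their own here. Since no label states whether replicates come from different animals, the p-values measure only the spread between these samples, which may be technical.

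All 10 skeletal muscle fibre markers were above the filter, and their summed log2 signal lay at 16.67 to 16.69 in spaceflight, 16.65 to 16.74 in ground AEM and 16.66 to 16.79 over the calf groups. Array medians lay at 6.15 to 6.23 in the flight experiment and at 6.28 to 6.39 in the calf experiment. The distance between the 25th and 75th percentile of an array (array range) was 2.75 to 2.91 in the flight experiment and 2.21 to 2.46 in the calf experiment, so signals were not set against each other between experiments. Suspension replicate 8 stood furthest from its group, with a median correlation of 0.985 with its group's other arrays. No array held the same values as another. These are whole muscles, so fewer cells of a type and less RNA per cell cannot be told apart.

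The promoter stretch is shown for the 3 genes that passed the test in flight, and for Rpl3l as the muscle paralog, because the pyrimidine tract at the start of transcription is the sequence feature that ribosomal protein genes are known for. Each run holds 70 bases before and 20 bases after the annotated start, written 5′ to 3′ on the gene's strand from RefSeq (GRCm38.p6), with the pyrimidine tract in capitals. The tract was searched on the sense strand as a C followed by at least 6 bases that are C or T, within 40 bases of the start on either side. Counted from the annotated start, the match begins at -22 in Rps25, at -19 in Rps15 and at -1 in Rps6. In Rps25 and Rps15 it ends before that start, so by this annotation only the Rps6 match reaches into the transcript. Rps25 lies on chromosome 9 (chr9:44407644-44407733, plus strand), Rps15 on chromosome 10 (chr10:80292361-80292450, plus strand), Rps6 on chromosome 4 (chr4:86857348-86857437, minus strand) and Rpl3l on chromosome 17 (chr17:24727756-24727845, plus strand, the upstream-most of 2 annotated starts). Rpl3l has a match at this start as well, but it does not lie wholly within the stretch shown, so its run has no capitals.
Rps25: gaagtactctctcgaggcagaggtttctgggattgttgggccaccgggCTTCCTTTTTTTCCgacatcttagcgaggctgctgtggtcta
Rps15: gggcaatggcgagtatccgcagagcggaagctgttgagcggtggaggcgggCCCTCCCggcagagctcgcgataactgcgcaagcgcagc
Rps6: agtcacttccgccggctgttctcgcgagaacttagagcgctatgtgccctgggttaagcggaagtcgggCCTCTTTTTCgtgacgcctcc
Rpl3l: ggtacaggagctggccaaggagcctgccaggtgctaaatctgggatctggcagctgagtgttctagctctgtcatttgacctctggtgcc

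Of the 48 genes, 42 have a promoter entry in the RefSeq table, and 35 of these (83.3%) hold a pyrimidine tract by this search, against 37.5% of 27025 genes with an entry. The 7 without a match in the window are Rplp0, Rpl41, Rpsa, Rps3, Rps3a1, Rps4x and Rps28. The motif CCGGAAG, searched on both strands over 300 bases (250 before and 50 after the start), was found in 21 of 42, against 9.93% of all genes. Rps25 and Rps6 hold it and Rps15 does not. The searches can overlap, since the reverse strand of CCGGAAG reads as pyrimidines at its start. A match is a description of the letters and not a site.

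In flown muscle, 3 ribosomal protein transcripts rose, and all 3 encode small-subunit proteins. Rps25 was 1.63-fold higher than in ground AEM muscle, Rps6 1.25-fold and Rps15 1.22-fold. These values are of the probe set used for each gene, and the other tested probe sets that list these genes gave smaller differences. None of the 24 large-subunit transcripts passed the test and 0 of 45 fell. Of all 9133 genes, 5.64% passed at a Benjamini-Hochberg adjusted p under 0.05 (limma), 3.18% as higher and 2.46% as lower, so 3 of 45 is close to the share among all genes. Counting every member tested, those 3 included, 19 of 24 large-subunit and 17 of 21 small-subunit differences were above 0, against 47.0% of all genes. The median log2 difference was 0.09 over the large subunit and 0.11 over the small subunit, beside -0.01 over all genes tested.

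Averaged over the 24 large-subunit genes, the 4 spaceflight arrays had log2 signals of 10.61, 10.55, 10.57 and 10.58, and the 4 ground AEM arrays had 10.54, 10.53, 10.45 and 10.49. Averaged over the 21 small-subunit genes, the spaceflight arrays had 11.06, 11.00, 11.08 and 11.00, and the ground AEM arrays had 10.94, 10.93, 10.84 and 10.89. Every spaceflight array lay above every ground AEM array for both subunits, by narrow gaps. The averages of the reloaded, suspension and control arrays overlapped for both subunits.

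**Figure D1:**
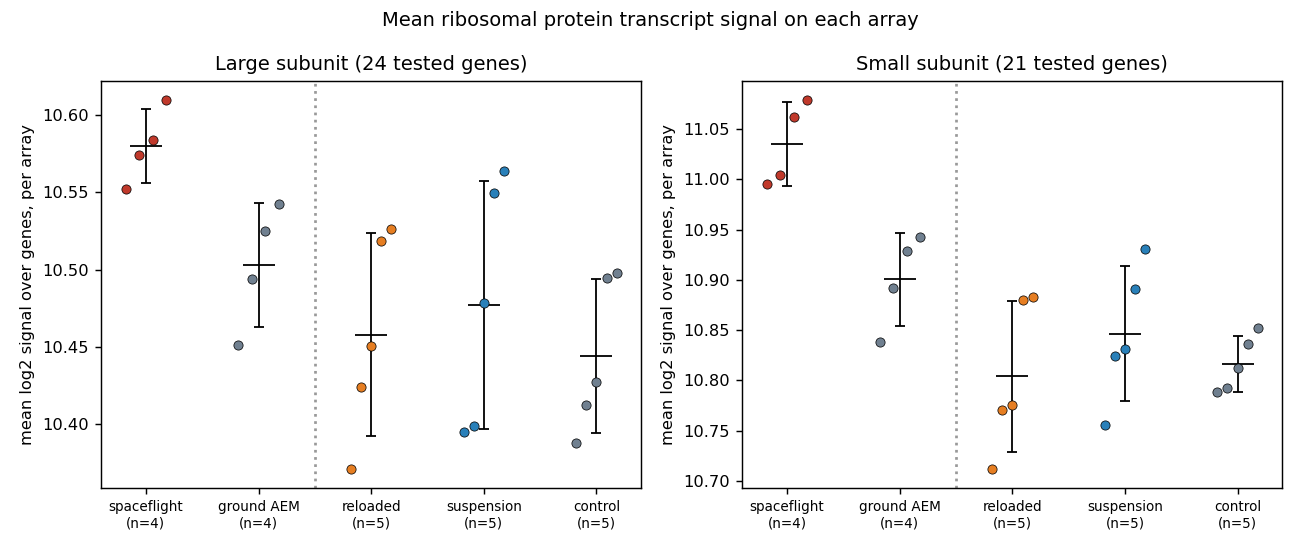
Mean log2 signal of the 24 large-subunit genes (left) and the 21 small-subunit genes (right) on each of the 23 arrays. Points are arrays placed in order of value, bars are the group mean ± SD, and the dotted line parts the gastrocnemius from the calf experiment. The spaceflight means of 10.58 and 11.04 lie above the ground AEM means of 10.50 and 10.90, while the calf groups overlap.

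Rps25, a protein of the small-subunit head that is known for its part in initiation at viral internal entry sites, gave the largest difference. Its log2 signals were 7.00, 6.75, 7.10 and 6.73 in spaceflight muscle, against 6.06, 6.40, 5.96 and 6.33 in ground AEM muscle. Every spaceflight array lay above every ground AEM array. The difference was 0.71 ± 0.12 on the log2 scale (SE, n = 4 each, 95% interval 0.46 to 0.96, adjusted p = 0.0031, limma). The call held without each of the 8 arrays in turn, with adjusted p between 0.00249 and 0.0126. With the filter raised to the 60th percentile, Rps25 was not among the genes tested.

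Rps15, which lies in the small-subunit head near the decoding site, was measured at log2 signals of 11.99, 11.94, 12.06 and 11.97 in spaceflight muscle, against 11.67, 11.65, 11.71 and 11.77 in ground AEM muscle. The groups did not overlap, and the SD was 0.05 within each of them. The difference was 0.29 ± 0.07 (SE, n = 4 each, adjusted p = 0.0291, limma). The call was lost in 7 of the 8 fits without 1 array, where adjusted p lay between 0.0537 and 0.0864 and the difference between 0.27 and 0.31; it held without ground AEM replicate 4 (adjusted p = 0.0397).

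Rps6, the target of the S6 kinases downstream of mTORC1, had log2 signals of 7.48, 7.45, 7.62 and 7.47 in spaceflight muscle, against 7.37, 7.12, 7.06 and 7.20 in ground AEM muscle. The groups did not overlap, with ground AEM replicate 1 closest to the flown arrays. The difference was 0.32 ± 0.08 (SE, n = 4 each, adjusted p = 0.0443, limma). It too was lost in 7 of the 8 fits without 1 array (adjusted p 0.0720 to 0.127, difference 0.28 to 0.34) and held without ground AEM replicate 1 (adjusted p = 0.0198).

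**Figure D2:**
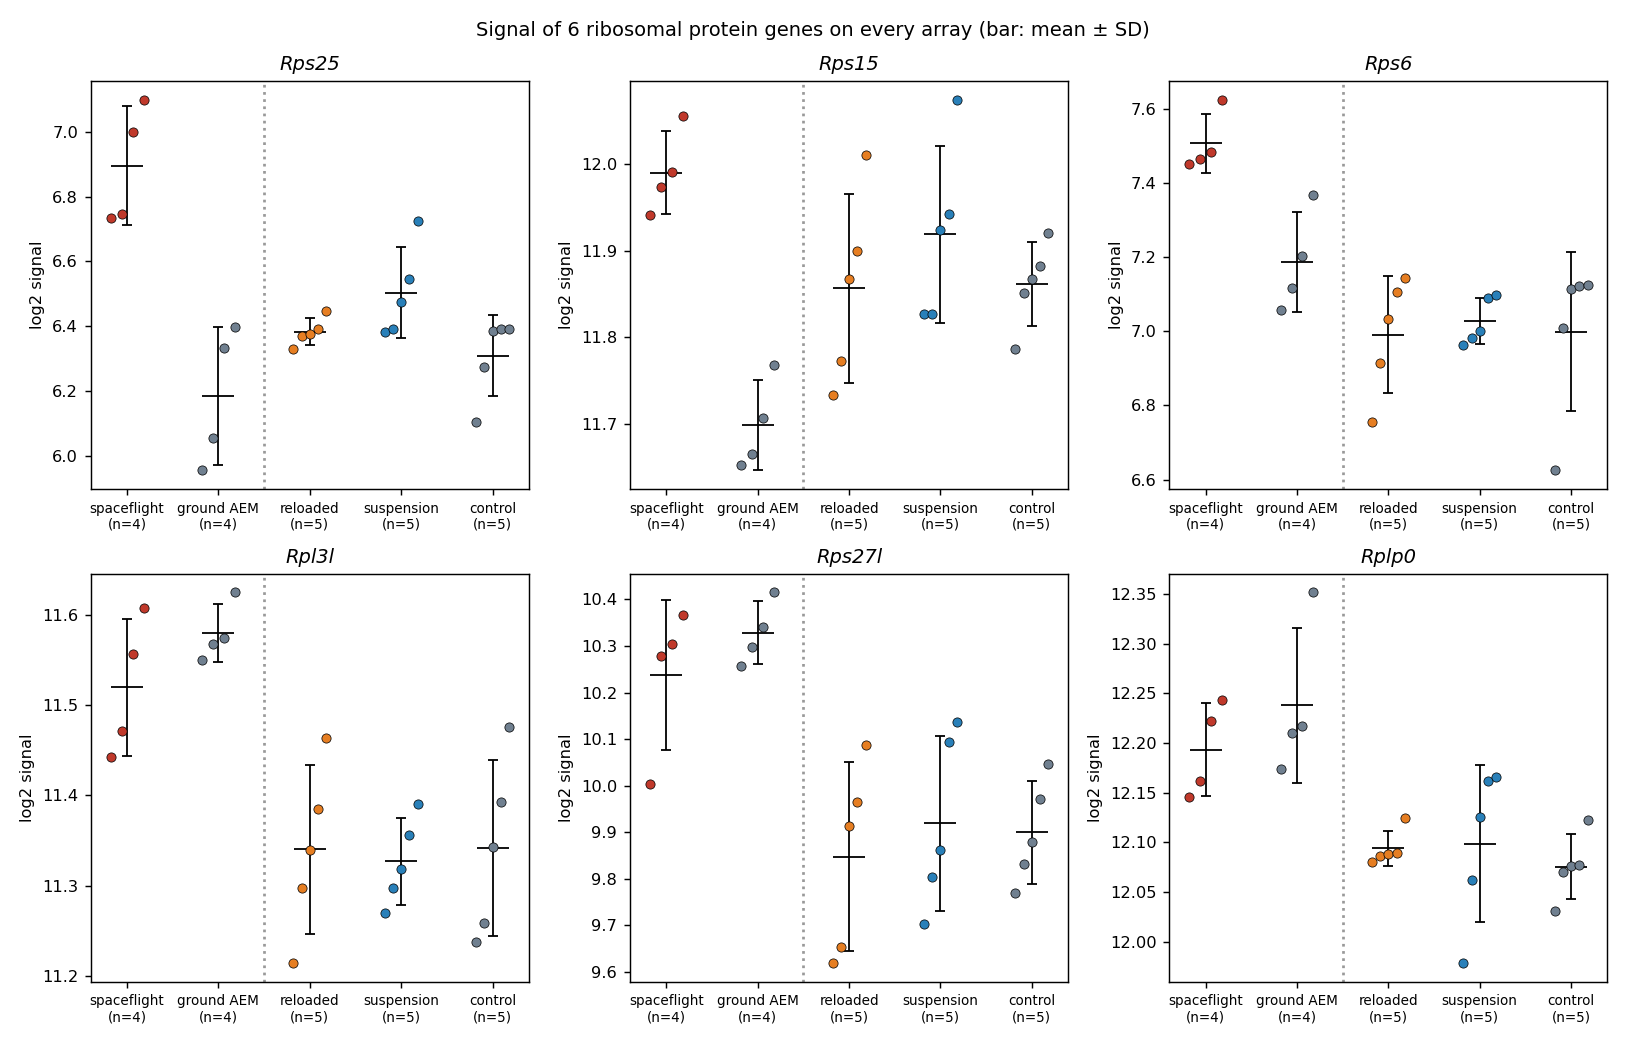
Log2 signal of 6 genes on every array, with the 3 genes past the threshold in flight above and 3 below that did not pass (Rpl3l, Rps27l and Rplp0). Points are arrays placed in order of value, bars are the mean ± SD, and each panel has its own vertical scale. Spaceflight and ground AEM do not overlap for Rps25, Rps15 and Rps6 and overlap for the other 3.

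Other probe sets of these genes gave smaller values. A second Rps15 probe set had log2 signals of 11.33, 11.19, 11.29 and 11.32 in spaceflight muscle and 11.00, 11.10, 11.05 and 11.15 in ground AEM muscle, groups that did not overlap, with a difference of 0.21 ± 0.07 (SE, adjusted p = 0.125 over 14851 probe sets). The probe set that lists Rps25 with 2 other symbols differed by 0.21 ± 0.08 (adjusted p = 0.136), less than the 0.71 of the single-symbol one. That shared probe set is much brighter, with a mean log2 signal of 10.75. The 8 probe sets that list Rps6 with 1 other symbol differed by 0.02 to 0.20, with the lowest adjusted p at 0.148. Their mean log2 signals ran from 7.01 to 12.57, beside 7.12 for the Rps6 probe set used. The second single-symbol probe set of Rps6 did not pass the filter. The single-symbol Rps25 probe set has a mean log2 signal of 6.45, not far above the filter at 5.83. Over all single-symbol probe sets of the members, 4 of 88 tested rose and 0 fell, against 6.36% of 14851 probe sets that passed in either direction. A further 102 probe sets list a gene of this naming pattern with other symbols, and 91 of them were tested. In flight 3 of the 91 rose and 0 fell. Their median was 0.11, beside -0.02 over all probe sets, and 82 lay above 0. In suspension against control, 46 of the 91 lay above 0 and none passed.

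**Figure D3:**
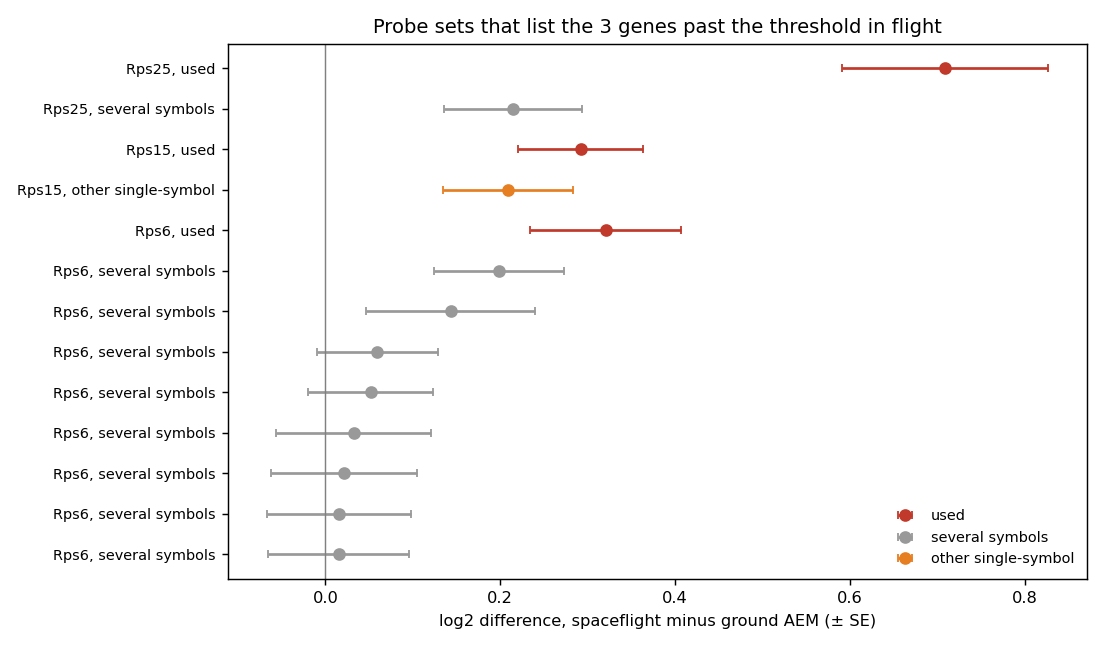
Log2 difference, spaceflight minus ground AEM, of every tested probe set that lists Rps25, Rps15 or Rps6, as the estimate ± SE (limma, 14851 probe sets). Red marks the probe set used for the gene, orange a second single-symbol probe set, and grey probe sets that list further symbols. For all 3 genes the probe set used lies farthest to the right.

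Of the other 18 small-subunit transcripts, none passed the test. Rps27, a zinc-finger protein, had log2 signals of 7.49, 7.33, 7.35 and 7.33 in spaceflight muscle, against 7.20, 7.15, 7.15 and 6.95 in ground AEM muscle, with a difference of 0.26 ± 0.08 (SE, adjusted p = 0.083). Rps29, another zinc-binding protein of the head, had 12.84, 12.84, 12.95 and 12.90 in spaceflight muscle, against 12.65, 12.72, 12.66 and 12.67 in ground AEM muscle (0.21, adjusted p = 0.106). Neither gene's groups overlapped. A second Rps29 probe set passed the test, at 0.30 (adjusted p = 0.0398), while the third gave 0.03 (adjusted p = 0.868), so the probe sets of Rps29 disagree. Rps18 differed by 0.17 with no overlap between groups. Rps19, the gene most often mutated in human Diamond-Blackfan anaemia, differed by 0.21 (adjusted p = 0.215) with overlapping groups. Rpsa, also known as a laminin receptor, differed by 0.13 (adjusted p = 0.481), and Rps3, which has a second role in DNA repair, by 0.04 (adjusted p = 0.818). Differences below 0 were found for Rps27l (-0.09), Rps24 (-0.03), Rps4x (-0.02) and Rps9 (-0.02), each with an adjusted p of at least 0.626.

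Among the large-subunit transcripts, Rpl11 came closest to the threshold. Rpl11, which with Rpl5 binds and inhibits the ubiquitin ligase Mdm2 when ribosome assembly fails, had log2 signals of 11.35, 11.41, 11.43 and 11.42 in spaceflight muscle, against 11.03, 11.18, 11.19 and 11.23 in ground AEM muscle. The groups did not overlap, and the difference was 0.24 ± 0.07 (SE, n = 4 each, adjusted p = 0.0792). Rpl27, Rplp2, Rpl6 and Rpl35 also had groups that did not overlap, with differences of 0.18, 0.17, 0.16 and 0.15 and adjusted p between 0.22 and 0.267. Counting both subunits, 11 of 45 members lay wholly higher in flight and 0 wholly lower, where 6.38% of all genes lay wholly higher and 6.00% wholly lower. Among large-subunit genes with overlapping groups, Rpl37a had the largest difference, at 0.19 (adjusted p = 0.209).

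Rplp2 and Rplp0 belong to the stalk of the large subunit, which recruits the GTPase translation factors. Rplp2 had log2 signals of 12.37, 12.47, 12.46 and 12.45 in spaceflight muscle, against 12.32, 12.34, 12.16 and 12.26 in ground AEM muscle. Rplp0, the base of the stalk, had 12.24, 12.22, 12.15 and 12.16 in spaceflight muscle, against 12.21, 12.17, 12.22 and 12.35 in ground AEM muscle. The Rplp2 groups were separate and the Rplp0 groups overlapped, with a Rplp0 difference of -0.04 (95% interval -0.20 to 0.11), and neither gene passed the test. The difference between these genes was not tested. Rpl38, whose loss in mouse alters skeletal patterning, and Rpl13a, a component of the human GAIT complex that silences interferon-induced mRNAs, each differed by 0.12 (adjusted p = 0.437 and 0.42). Rpl39, a small protein of the nascent-chain exit tunnel, differed by -0.04. The lowest value was that of Rpl27a, at -0.17 (adjusted p = 0.418), with every gastrocnemius array below the filter, followed by Rpl7l1, a paralog of Rpl7 that acts in ribosome assembly in human cells, at -0.09 (adjusted p = 0.684). The other Rpl27a probe set, also below the filter, went the other way. Its log2 signals overlapped, at 4.91 to 5.26 in spaceflight muscle and 4.74 to 5.23 in ground AEM muscle.

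**Figure D4:**
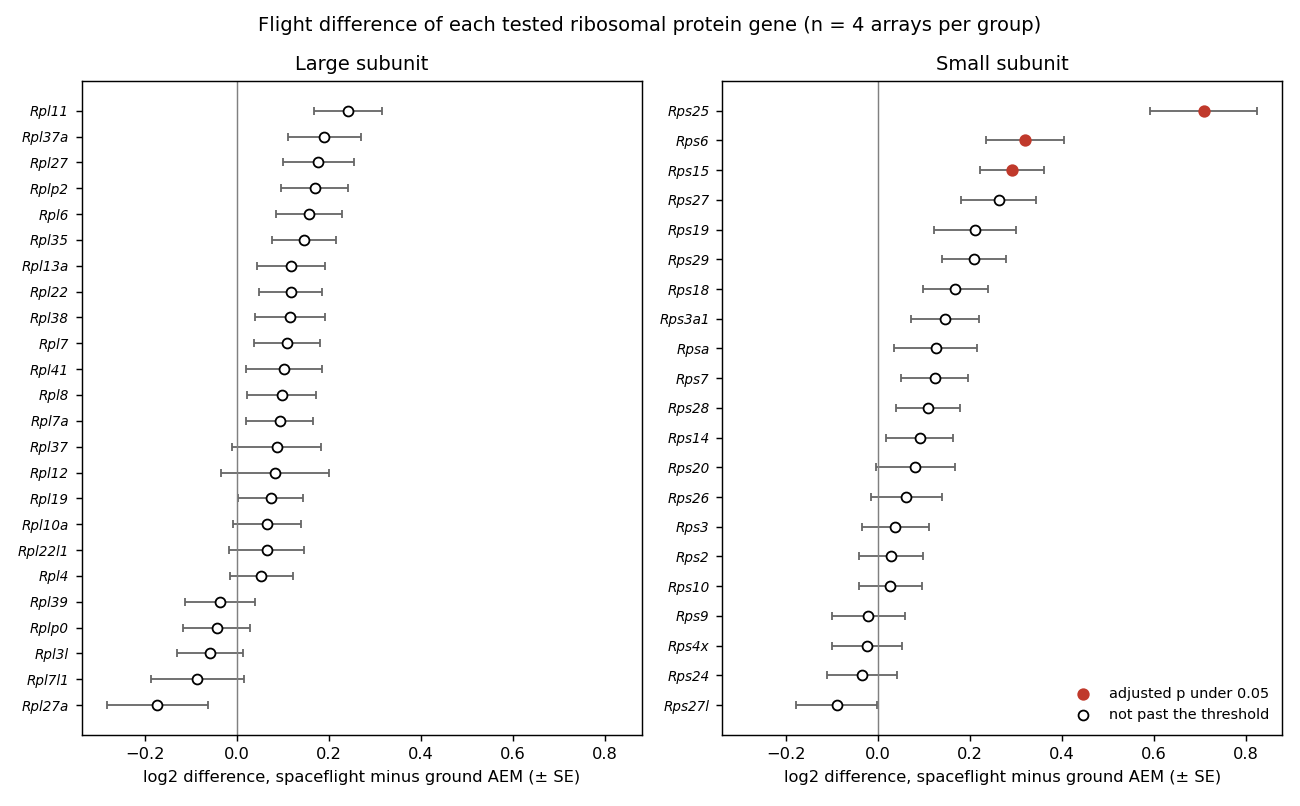
Log2 difference, spaceflight minus ground AEM, of each of the 24 large-subunit (left) and 21 small-subunit (right) genes tested, as the estimate ± SE (n = 4 arrays per group). Filled points passed an adjusted p under 0.05 and open points did not. The filled points are Rps25, Rps6 and Rps15, and 36 of the 45 points lie right of 0.

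The paralogs of standard ribosomal proteins did not pass the test in flight. Rpl3l had log2 signals of 11.56, 11.61, 11.47 and 11.44 in spaceflight muscle, against 11.57, 11.55, 11.62 and 11.57 in ground AEM muscle. These groups overlapped, with a difference of -0.06 ± 0.07 (SE, 95% interval -0.21 to 0.09, adjusted p = 0.692). Rps27l, a target of Trp53 and paralog of Rps27, had 10.30, 10.37, 10.28 and 10.00 in spaceflight muscle, against 10.26, 10.42, 10.34 and 10.30 in ground AEM muscle. The groups overlapped, replicate 11 being the lowest spaceflight array, and the difference was -0.09 (95% interval -0.28 to 0.10), where that of Rps27 was 0.26. The difference between Rps27l and Rps27 was not tested. Another Rps27l probe set did not fall, with 10.18, 10.25, 10.24 and 10.18 in spaceflight muscle and 10.12, 10.22, 10.18 and 10.19 in ground AEM muscle. Rpl22, a protein with roles in T-cell development in mouse, and its paralog Rpl22l1 differed by 0.12 (adjusted p = 0.387) and 0.06 (adjusted p = 0.715).

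After 12 days of suspension, none of the 45 transcripts passed the test against control muscle, where 0.372% of all genes did. The medians were 0.03 over the large subunit and 0.02 over the small subunit, beside 0.0026 over all genes. The 95% intervals of all 45 members lay between -0.31 and 0.43, and no member's groups were separate, where 2.04% of all genes had separate groups. Rps25 had the highest value, with log2 signals of 6.72, 6.38, 6.39, 6.47 and 6.55 in suspension muscle, against 6.39, 6.39, 6.11, 6.38 and 6.27 in control muscle. The groups overlapped, with replicate 8 the highest suspension array. The difference was 0.19 ± 0.08 (SE, n = 5 each, 95% interval 0.03 to 0.36, adjusted p = 0.441, limma). Before adjustment it was the only member under 0.05, a level that 8.65% of all genes reached. Rpl12 (0.15) and Rpl10a (0.14) followed, and Rpl22 (-0.09) and Rps3a1 (-0.06) had the lowest values. Rpl3l differed by -0.01 (95% interval -0.16 to 0.13), with 11.32, 11.30, 11.27, 11.36 and 11.39 in suspension muscle and 11.34, 11.48, 11.26, 11.24 and 11.39 in control muscle.

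After 3.5 hours of reloading, none of the 45 passed the test against suspension muscle, where 0.580% of all genes did. The medians were -0.03 and -0.05 over the large and small subunit, beside -0.02 over all genes, and 11 of 45 differences were above 0, against 41.9% of all genes. That share depended on the probe sets counted. Of all 88 tested single-symbol probe sets of the members, 39 were above 0. Their median was -0.011, beside -0.014 over 14851 probe sets. Of 91 tested probe sets that list such a gene with other symbols, 48 were above 0 (median 0.0077). Rps25 had log2 signals of 6.37, 6.33, 6.38, 6.39 and 6.45 in reloaded muscle, which overlapped with the suspension arrays, at a difference of -0.12 (adjusted p = 0.649). Rpl10a, the protein of the movable stalk beside the exit site, had 11.37, 11.26, 11.17, 11.33 and 11.53 in reloaded muscle, against 11.47, 11.57, 11.54, 11.62 and 11.30 in suspension muscle. These overlapped, with a difference of -0.17 ± 0.08 (SE, n = 5 each, adjusted p = 0.543), the lowest of the members. Rps2 (-0.13) and Rps14 (-0.12), both of the small subunit, came next, and Rpl27a (0.15) and Rpl12 (0.12) were highest. This comparison and that of suspension with control share the suspension arrays.

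Against control muscle, which this comparison shares with that of suspension, reloaded muscle also had 0 of 45 members past the test, where 0.318% of all genes passed. The medians were -0.01 over each subunit, beside -0.02 over all genes. Rpl12, a protein of the stalk base, had the highest value, with log2 signals of 5.67, 5.86, 5.91, 5.83 and 5.89 in reloaded muscle, against 5.50, 5.39, 5.55, 5.63 and 5.77 in control muscle. The groups overlapped through reloaded replicate 14 and control replicate 22, and the values lie around the filter. The difference was 0.27 ± 0.09 (SE, n = 5 each, adjusted p = 0.366). Rpl22l1 (0.15) and Rpl27a (0.13) followed, and Rpsa (-0.08) and Rpl11 (-0.08) had the lowest values. Rpl3l and Rps6 differed by -0.0014 and -0.0080, with 95% intervals of -0.14 to 0.14 and -0.21 to 0.19.

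**Figure D5:**
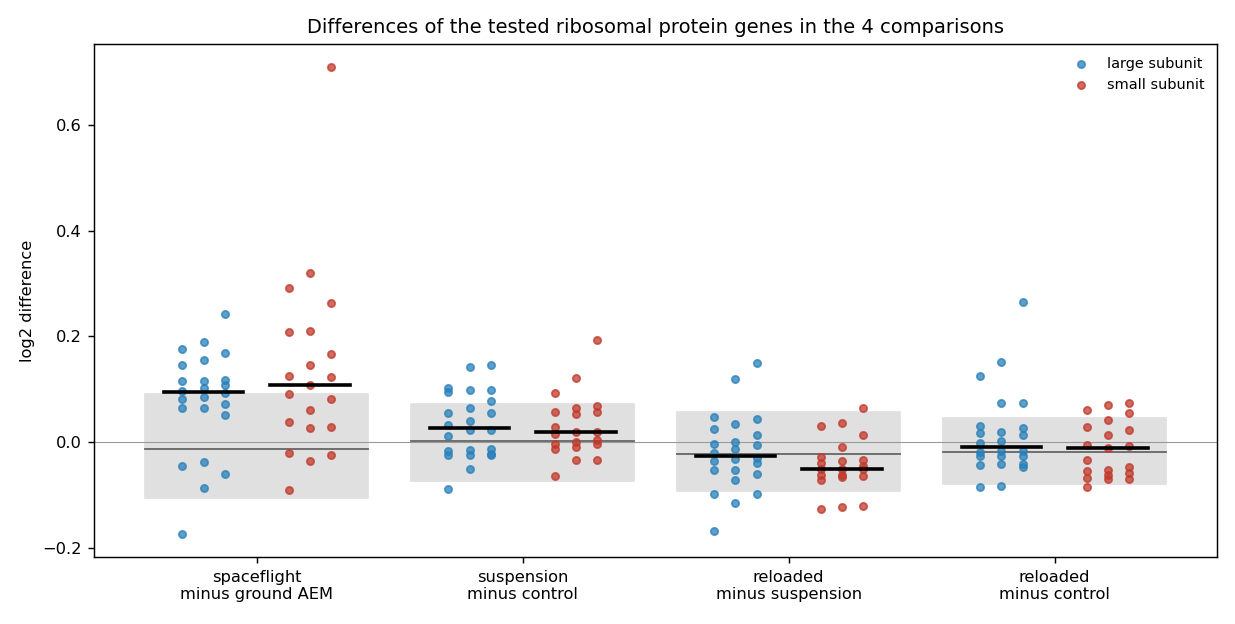
Log2 difference of each tested large-subunit (blue) and small-subunit (red) gene in the 4 comparisons of groups. Black bars are the subunit medians, the grey line is the median and the grey band the middle of the distribution (25th to 75th percentile) of all 9133 genes. In flight the subunit medians of 0.095 and 0.11 lie above the band, which ends at 0.090, and in the calf comparisons they lie inside it.

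Whether the flight difference of a gene is unlike its calf difference was tested as a difference of effects over all 23 arrays. The flight effect minus the reloaded effect (reloaded minus control) passed for 1 of 45 members, Rps25, where 2.74% of all genes passed. For Rps25 the flight effect was larger by 0.64 ± 0.14 (SE, 95% interval 0.36 to 0.91, adjusted p = 0.00813). The call held without each of the 18 spaceflight, ground AEM, reloaded and control arrays in turn. The flight effect minus the suspension effect passed for 0 of 45 members, where 1.27% of all genes passed, and for Rps25 it was 0.52 ± 0.14 (95% interval 0.24 to 0.79, adjusted p = 0.0558). Without suspension replicate 8 it was 0.57 with an adjusted p of 0.0237. It also passed without control replicate 19 (0.57, adjusted p = 0.0341), ground AEM replicate 2 (0.59, adjusted p = 0.0223), spaceflight replicate 11 (0.57, adjusted p = 0.0386) or spaceflight replicate 9 (0.56, adjusted p = 0.0479). Rps6 had 0.33 against the reloaded effect (adjusted p = 0.248) and 0.29 against the suspension effect (adjusted p = 0.376). Rps15 had 0.30 against the reloaded effect (adjusted p = 0.108) and 0.23 against the suspension effect (adjusted p = 0.304). Both tests share the flight experiment's arrays and the control arrays. Tissue label, housing, experiment and array range differ between the effects together with the treatment and cannot be told apart. These 2 tests were not run with array range as a covariate.

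Genes that make or regulate ribosomes were counted from lists drawn up with earlier results known. Of 35 tested genes for ribosome processing, assembly and export, 1 rose in flight and 0 fell, where 3.18% of all genes rose and 2.46% fell. The median difference of the 35 was 0.09, and 25 of them lay above 0, against 47.0% of all genes. The gene that rose was Brix1, which acts in assembly of the large subunit. It had log2 signals of 8.12, 7.88, 7.96 and 8.15 in spaceflight muscle, against 7.77, 7.44, 7.40 and 7.56 in ground AEM muscle. The groups did not overlap (0.48 ± 0.10, SE, adjusted p = 0.0113). None of 14 tested genes of RNA polymerase I transcription passed, Polr1b coming closest at 0.27 (adjusted p = 0.0568). None of 10 elongation factors and other mRNAs with a pyrimidine tract passed, with a median of 0.10. Fau, which encodes the small-subunit protein eS30 as a fusion and falls outside the naming pattern, differed by 0.23 (adjusted p = 0.118).

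Of 15 tested genes of mTORC1 and growth signalling, 3 rose in flight and 1 fell, where 3.18% of all genes rose and 2.46% fell. The inhibitors of mTORC1 signalling Ddit4 and Sesn1 rose, and so did Eif4ebp1, the translational repressor that mTORC1 phosphorylates. Ddit4 had log2 signals of 11.23, 11.33, 10.79 and 11.37 in spaceflight muscle, against 7.39, 10.68, 7.80 and 7.57 in ground AEM muscle. Replicate 2 of ground AEM was close to the flown arrays, and the groups did not overlap (2.82 ± 0.54, SE, adjusted p = 0.0088). Sesn1 differed by 0.77 (adjusted p = 0.000608) and Eif4ebp1 by 0.52 (adjusted p = 0.00155). Mycn, a growth-promoting transcription factor, was lower, at -0.31 (adjusted p = 0.0391). None of the genes of these lists passed in the 3 calf comparisons, where 0.318% to 0.580% of all genes did.

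Markers of other cell types moved with flight beside the ribosomal protein genes. All 5 tested adipocyte markers rose, with a summed log2 signal of 10.54 to 10.98 in spaceflight muscle, against 9.38 to 9.75 in ground AEM muscle. Of 6 fibroblast markers, 3 collagen genes fell, and the summed signal was 11.95 to 12.24 in spaceflight muscle and 12.09 to 12.73 in ground AEM muscle. The erythroid marker Alas2 and 1 of 7 endothelial markers, Kdr, fell. None of the 10 muscle fibre, 9 macrophage, 3 lymphocyte, 3 Schwann cell, 1 satellite cell and 4 keratinocyte markers tested passed. The share among all genes in flight was 5.64%. In suspension, 1 of 3 Schwann cell markers, Mbp, rose, and none of the other cell type markers passed in the calf comparisons. The signal difference between 3′ and 5′ probe sets of actin and Gapdh, a measure of RNA quality, overlapped between spaceflight and ground AEM. Array range overlapped too, but its mean was higher in spaceflight (2.86) than in ground AEM (2.80). It was 2.91, 2.90, 2.88 and 2.75 on the spaceflight arrays, and 2.88, 2.78, 2.78 and 2.78 on the ground AEM arrays. With array range as a covariate, only Rps25 of the members passed in flight. The part of the cell type markers in the ribosomal protein values was not tested.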

How the data were processed

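The deposited log2 values of 23 Affymetrix arrays were used. The authors' tools were RMA and MAS5, per the submitters' processing notes, but the sources used here do not say which made these values, and they were taken as deposited. The platform annotation table names 20380 of 22626 probe sets with 1 symbol, and all 48 members matched RefSeq by Entrez identifier.

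Tests were two-sided, from lmFit and eBayes of limma 3.58.1 in R 4.3.3, and adjusted by Benjamini-Hochberg over 9133 genes. The 8 gastrocnemius arrays were fitted alone, and the 15 calf arrays together. Precision is limited by the number of arrays: a member's difference had a median standard error of 0.075 in flight and 0.073 in the calf experiment. Scripts were tested on simulated data. Of 50 genes given a log2 change of 0.3, 12 passed in simulated flight data and 24 in simulated suspension against control. For a change of 1, 48 and 50 of 50 passed. A change of about 0.3 can thus often fail the test.

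The members, lists and motifs were chosen with earlier results of these data known. Named were 25 fixed members (7 have no single-symbol probe set), up to 5 called members a direction or else the 3 largest differences, members with an outlying array, and called genes of the lists. Polr1b and other uncalled genes of the lists, Rpl37a, and members with separate groups were named after their values were seen. The planned ratio of Rpl3l to Rpl3 was not computed, because Rpl3 has no probe set of its own. The alternatives are given in the closing section.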

Additional observations from a re-analysis of the deposited data

Results flagged for a closer look

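An array far from the rest of its group was found for 6 of 150 combinations of a gene or subunit mean and a group, where chance gives about 1 in 20. Rpl10a in spaceflight replicate 11 (11.49), Rps3a1 in spaceflight replicate 9 (11.79), Rps3 in suspension replicate 30 (11.52) and Rps6 in control replicate 1 (6.62) were the lowest of their groups. Rps27 in spaceflight replicate 8 (7.49) and Rplp0 in reloaded replicate 15 (12.12) were the highest of their groups. Of these genes, Rps6 is called in flight, a comparison that does not use control replicate 1.

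The flight effect on Rps25 exceeded the reloaded effect by 0.64 on the log2 scale, past the threshold in the test of that difference, with a flight effect of 0.71 and a reloaded effect of 0.07.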

How the results depend on the processing

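In the 3 calf comparisons the count of members past the threshold was 0 under every alternative run. In flight it was 3, and 1 (Rps25) with array range as a covariate and at an adjusted p under 0.01, 5 (with Rpl11 and Rps29) with an eBayes trend and robust estimation, and 1 to 2 without 1 array. It was 2 with the filter at the 60th percentile, where Rps15 and Rps6 passed and Rps25 was not tested, and 2 (Rps15 and Rps25) when probe sets of a gene were averaged. With array range as a covariate, Rps15 had an adjusted p of 0.0632 and Rps6 of 0.141. Rps6 also lost its call with no filter on low values (adjusted p = 0.057) and with all 23 arrays in 1 fit (0.0531). For the flight effect minus the suspension effect the count was 0, and 1 when probe sets of a gene were averaged, with quantile normalization or with array weights, 2 without suspension replicates 8 and 9 together, and 0 to 1 without 1 array. For the flight effect minus the reloaded effect it was 1, and 0 with the filter at the 60th percentile and 2 with the eBayes trend or array weights. Its small-subunit median was 0.060 with every probe set on its own. The cause of these changes was not tested, except where Rps25 left the tested genes.

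If the free-text descriptions were right, the flight signs would turn. With spaceflight and ground AEM exchanged, the flight medians were -0.095 (large) and -0.11 (small), and Rps25, Rps15 and Rps6 had -0.71, -0.29 and -0.32. Against suspension the count was then 2 (Rps15 and Rps25, lower), with medians of -0.15 and -0.12 and Rps25 at -0.90. Against reloading the medians were -0.089 and -0.11, with Rps25 at -0.78. Leaving out 1 array moved no subunit median by more than the spread between replicates, an SD of 0.057 (large) and 0.055 (small). That spread is larger in size than every calf median, so it cannot show that the calf medians are stable. Without 1 array the flight medians lay at 0.079 to 0.110 (large) and 0.073 to 0.132 (small). The large-subunit median of the flight effect minus the suspension effect lay at 0.010 to 0.069. No paired analysis was possible because the groups compared share fewer than 2 replicate numbers in the labels. The ratio of Rpl3l to Rpl3 and its alternatives were not run. Signals near the filter, as for Rpl12, Rpl27a and Rps25, may misstate a change, which was not tested, and no background level was measured. The brighter probe set that lists Rps25 with further symbols gave a flight difference of 0.21, beside 0.71 for the one used.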
